A study of Mus musculus with 4 samples.

Results

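The genes described here build and cap the outer part of glycan chains: sialyltransferases, galactosyltransferases, N-acetylglucosaminyltransferases (GlcNAc transferases), N-acetylgalactosaminyltransferases (GalNAc transferases), fucosyltransferases, and the sulfotransferases that act on glycans and heparan sulfate. They were chosen by name among the autosomal probes. A gene name in the array design had to begin with 1 of 14 family stems (St3gal, St6gal, St6galnac, St8sia, B3gal, B3gnt, B4galt, Gcnt, Galnt, Fut, Chst, Hs3st, Hs6st and Ndst) followed by a number. Lower-case letters could stand between stem and number, as in Galntl4. Shared names were split, so a region of the promoter shared by Fgf21 and Fut1 counts under Fut. The rule gave 492 of the 83122 non-control probes, in 95 regions of 83 genes, out of 17546 gene names on the arrays. The families were picked with the ratios of these same arrays known, so the calls below describe the genes and are no independent test of them. A further 13 probes of Chst7 and Hs6st2 lie on the X chromosome and fell outside the rule, and no probe carried the name B3gnt6, a mucin core enzyme of the gut that was to be reported by name.

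Genomic DNA from the intestine of 32-month-old C57BL/6 mice was labelled with Cy5 and hybridised together with DNA from 3-month-old C57BL/6 mice, labelled with Cy3, on 2 custom arrays. The first array holds chromosomes 1 to 8 and a small share of chromosome 9, with Fut4 among the members, and the second holds the rest of chromosome 9 and chromosomes 10 to 19, X and Y, so each gene was measured once at each age and no dye was swapped. Intestine is a mixture of epithelium, muscle, nerve and blood cells, and the DNA of all of them enters 1 value. The series is filed as methylation profiling by array. The step that enriches or depletes methylated DNA, the genome build and the number and sex of the animals are unstated in the labels and file headers, so values are reported as signal at each age and not as a methylation level. With 1 sample per age there is no replicate error between animals and no p-value: an SD below is the spread between neighbouring probes of 1 region, and a difference between ages can be one between individual mice, labelling reactions or dyes, which cannot be told apart from age.

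Glycosyltransferases sit mostly in the Golgi and add 1 sugar at a time from an activated nucleotide sugar. In the gut, GalNAc transferases start the O-linked chains of mucins, galactosyl and GlcNAc transferases lengthen and branch them, and sialic acid, fucose and sulfate close their ends, where microbes, lectins and selectins bind. Several sialyltransferases, above all the polysialic acid and ganglioside enzymes of the St8sia family, are best known from the nervous system. Heparan sulfate enzymes (Hs3st, Hs6st, Ndst) set where growth factors bind the matrix.

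The sequences that follow are the probes on which the results turn, shown so that each ratio below can be placed on its DNA. They are given in lower case as the array design has them, with every CG dinucleotide, the pair at which mammalian DNA is methylated, in capitals. Positions are those of the array files, whose build and probe strand are not stated. The 3 probes of St6gal1 had no CG at all, and neither had the 3 probes of St6galnac3 with the highest ratios.
St6gal1 probe 1, chr16:23139218-23139264, promoter: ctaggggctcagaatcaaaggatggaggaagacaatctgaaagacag
St6gal1 probe 2, chr16:23139460-23139519, promoter: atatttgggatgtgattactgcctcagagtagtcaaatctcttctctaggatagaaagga
St6gal1 probe 3, chr16:23139845-23139904, promoter: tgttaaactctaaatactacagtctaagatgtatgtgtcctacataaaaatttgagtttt
St6galnac3 probe 4, chr3:153662981-153663039, promoter: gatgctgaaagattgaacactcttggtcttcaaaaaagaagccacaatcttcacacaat
St6galnac3 probe 5, chr3:153663213-153663272, promoter: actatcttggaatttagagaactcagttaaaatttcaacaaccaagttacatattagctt
St6galnac3 probe 6, chr3:153663420-153663474, promoter: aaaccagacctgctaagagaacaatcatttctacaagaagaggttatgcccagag
Chst2 probe 3, chr9:95216293-95216337, promoter: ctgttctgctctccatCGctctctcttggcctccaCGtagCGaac
Hs6st3 probe 3, chr14:118273631-118273675, inside the gene: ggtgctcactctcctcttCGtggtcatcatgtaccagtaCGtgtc
St8sia1 probe 1, chr6:142921361-142921405, inside the gene: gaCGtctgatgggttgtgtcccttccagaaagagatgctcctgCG
St8sia6 probe 1, chr2:13710963-13711011, inside the gene: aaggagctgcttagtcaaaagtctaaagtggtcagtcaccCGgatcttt
St8sia6 probe 2, chr2:13711127-13711171, inside the gene: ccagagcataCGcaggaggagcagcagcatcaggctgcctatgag
Fut9 probe 1, chr4:25890178-25890222, inside the gene: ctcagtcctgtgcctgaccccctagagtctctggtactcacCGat
Chst5 probe 1, chr8:114796621-114796676, inside the gene: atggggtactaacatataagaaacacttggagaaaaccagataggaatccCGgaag
Chst5 probe 2, chr8:114796912-114796957, promoter: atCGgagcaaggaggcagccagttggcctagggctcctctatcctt

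For 64 of the 83 genes RefSeq holds a promoter on GRCm38.p6, taken here as the 250 bases before and 50 bases after the start of transcription, and 41 member probes matched one exactly. Promoters of 3 genes are printed because a probe with a large ratio in either direction lies in each. They run 5′ to 3′ in the direction of the gene, and the capitals mark the probe. The St6gal1 promoter, chr16:23224490-23224789 on the plus strand, has 7 CG, which is the median of all 32851 RefSeq promoters, and its probe covers bases 229 to 170 before the start. The Chst5 promoter, chr8:111910150-111910449 on the minus strand, has 21 CG and is covered from base 85 to base 40 before the start. The St8sia6 promoter, chr2:13793471-13793770 on the minus strand, has 39 CG and is covered from base 249 to base 205 before the start. The probes in these windows had log2 ratios of 1.41, -2.71 and -1.48 for St6gal1, Chst5 and St8sia6. Probes in the promoters of B3gnt5 and B4galt7, which are not printed, also passed -1, at -1.42 and -1.29. The B4galt7 probe was not well above background at 32 months.
St6gal1 promoter: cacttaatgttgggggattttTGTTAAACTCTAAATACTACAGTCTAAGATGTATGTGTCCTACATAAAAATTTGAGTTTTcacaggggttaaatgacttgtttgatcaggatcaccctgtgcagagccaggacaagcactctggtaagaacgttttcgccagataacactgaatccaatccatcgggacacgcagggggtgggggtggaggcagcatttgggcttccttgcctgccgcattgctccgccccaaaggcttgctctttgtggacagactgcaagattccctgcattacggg
Chst5 promoter: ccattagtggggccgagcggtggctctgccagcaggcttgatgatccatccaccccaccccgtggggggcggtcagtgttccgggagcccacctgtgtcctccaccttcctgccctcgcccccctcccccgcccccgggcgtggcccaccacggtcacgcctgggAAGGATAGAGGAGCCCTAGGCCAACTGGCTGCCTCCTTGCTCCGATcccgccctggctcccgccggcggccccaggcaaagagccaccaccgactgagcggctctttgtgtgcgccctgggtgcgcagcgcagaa
St8sia6 promoter: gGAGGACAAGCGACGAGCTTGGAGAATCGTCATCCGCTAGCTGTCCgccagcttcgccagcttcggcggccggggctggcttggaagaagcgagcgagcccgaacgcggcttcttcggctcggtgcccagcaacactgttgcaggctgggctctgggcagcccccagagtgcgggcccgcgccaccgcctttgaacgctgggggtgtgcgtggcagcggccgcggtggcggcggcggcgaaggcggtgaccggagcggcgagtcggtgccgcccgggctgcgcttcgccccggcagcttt

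Ratios are log2 of the 32-month over the 3-month processed signal after the median of all probes of the array was subtracted. A ratio of 0 is thus the median probe of an array, dim ones included, and 1 a doubling. Signals are printed before that subtraction, which was 0.0044 for the first array and -0.14 for the other. A probe counted as usable when its signal was well above background at 1 age or both by the scanner software's own flag, and 406 of 492 member probes (82.5%) did, against 75.5% of all autosomal probes. Over usable probes alone the medians before subtraction were -0.029 for the first array and -0.052 for the other. A ratio of 0 is therefore not exactly the median usable probe of either array. Of all probes of an array, 72.5% and 71.2% were well above background at 32 and 3 months on the first array, and 70.1% and 71.4% on the second, with none saturated. On each array a control probe printed in 96 spots gave ratios with an SD of 0.27 and 0.19, at modest brightness. Probes of 1 gene at most 1000 bp apart formed a region, and 85 of the 95 regions, from 78 genes, had the 2 usable probes needed for a value, which is the median of their ratios. A call of higher needed a median of 1 or more with no usable probe at or under 0, and a call of lower needed -1 or less with none at or over 0.

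Signal was called higher at 32 months in 1 region each of 5 genes: St6galnac3, St6gal1 and St8sia1 among the sialyltransferases, and Chst2 and Hs6st3 among the sulfotransferases. No region of any of these genes was called lower. These 5 of 85 regions are 5.88%, beside 2.05% called higher among the 14835 autosomal regions with a value, and the 0 called lower stand beside 0.519%. The other 80 regions were not called. Most regions lay close to 0, with 71 of 85 within 0.5. Of all 85, 45 lay above 0, the 5 called ones among them, and 40 below. The median over the member regions was 0.0093 (SD 0.49), against 0.017 (SD 0.48) over all autosomal regions, and the 5 calls are single genes at the upper end. Whatever the sign of single probes, 6 of 85 medians (7.06%) were 1 or more, against 3.03%. St6gal1 at 1.38 was the called region nearest the threshold, and St8sia2 at 0.94 the uncalled one nearest below it.

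**Figure D1:**
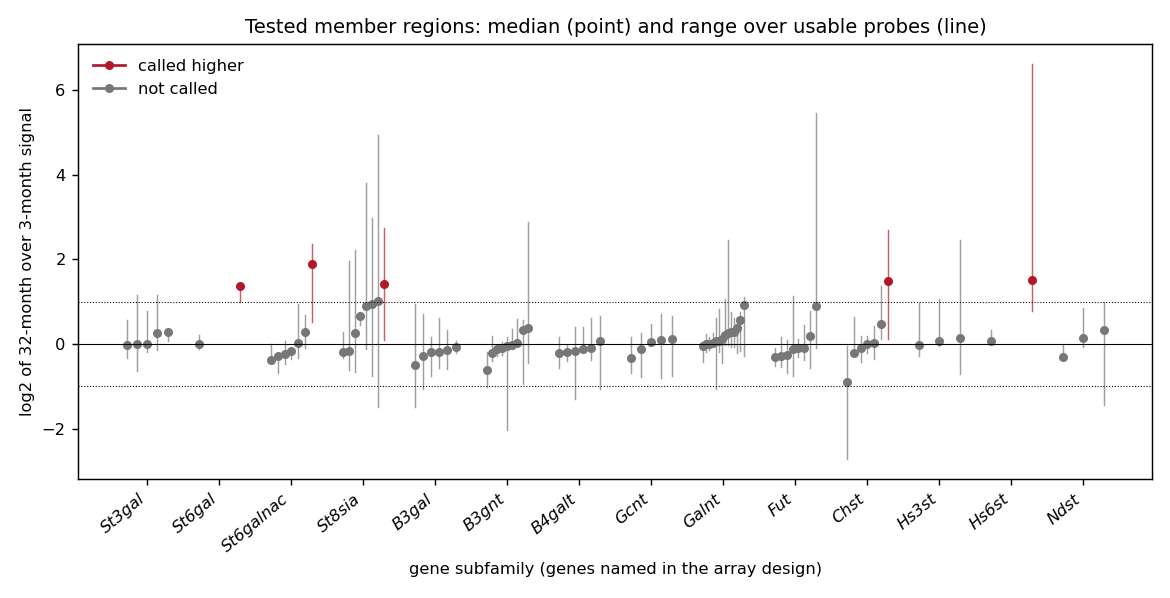
Median log2 ratio of 32-month over 3-month signal (points) and range over usable probes (vertical lines) of the 85 member regions with a value, grouped by gene subfamily along the x axis; dotted lines mark 1 and -1. The 5 regions called higher lie in St6gal, St6galnac, St8sia, Chst and Hs6st, and wide ranges are seen in Hs6st3, Fut9 and several St8sia regions.

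Among sialyltransferases, which cap chains with sialic acid, 3 of 22 regions were called higher, beside 2.05% of all autosomal regions, and 14 lay above 0, with a median of 0.15. St6galnac3 links sialic acid to GalNAc in gangliosides and O-glycans. Its region (chr3:153662246-153663474, 6 probes across the promoter and the first bases of the gene) had signals of 11500, 7880, 12000, 3440, 3420 and 4560 at 32 months, against 7930, 2400, 7280, 667, 730 and 1080 at 3 months in the same order. All 6 probes were higher at 32 months, by 0.53 at least and 2.36 at most, and the 3 promoter probes farthest from the gene were the highest. The region's median of 1.89 ± 0.79 (SD over 6 probes), or 3.71-fold, is the highest of all member regions. None of the other St6galnac regions was called: the 7 of the subfamily had a median of -0.17 (0.082 under normexp background correction, which moves the median of all autosomal regions to 0.11), and St6galnac1, which makes the sialyl-Tn antigen on mucins, stood at -0.29.

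St6gal1 adds the sialic acid that ends most N-glycans of serum proteins and many epithelial cells. Its 3 promoter probes (chr16:23139218-23139904) had 860, 1370 and 1060 at 32 months, against 473, 579 and 440 at 3 months. Each probe was higher at 32 months, and the probes were alike in their ratios, 1.00, 1.38 and 1.41. The median was 1.38 ± 0.23 (SD over 3 probes), a 2.61-fold difference, with the smallest spread among the 5 called regions. St6gal2, the only other gene of the subfamily, had a median of 0.0062 over 3 probes.

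St3gal enzymes add sialic acid to galactose in another linkage. Their 5 regions ranged from -0.029 to 0.29 with a median of 0.0087, and none was called. The highest, St3gal4, which helps to form selectin ligands, had 1510, 460 and 788 at 32 months, against 1590, 414 and 710 at 3 months, with a median of 0.29 ± 0.13 over 3 probes, which is 0.53 under normexp and 0.15 without centring. Single probes of St3gal2 and St3gal3 reached 1.16 and 1.17.

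**Figure D2:**
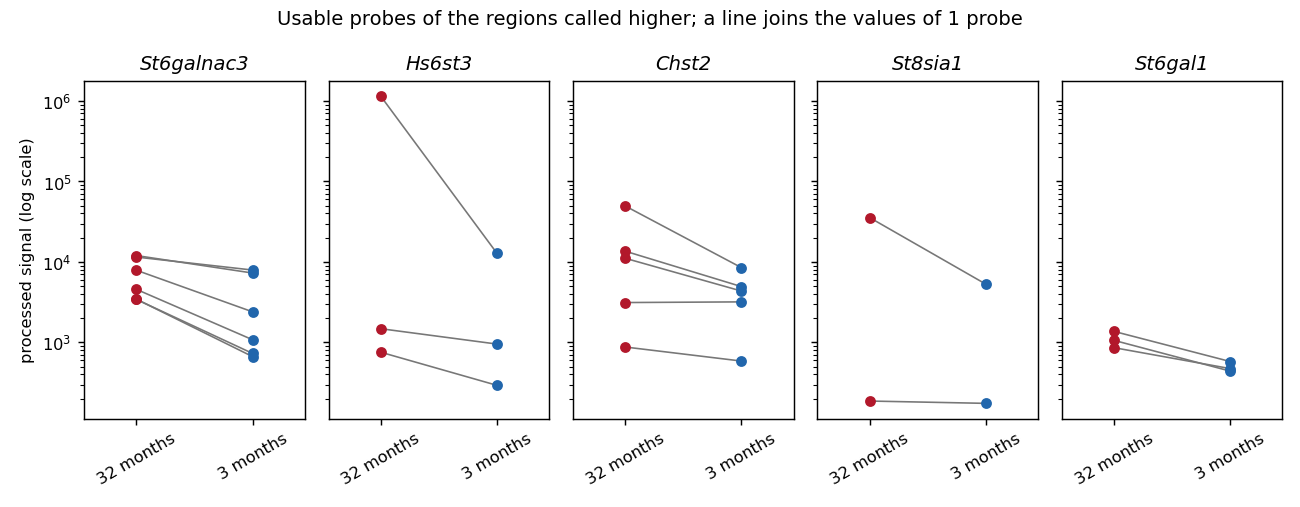
Processed signal (log scale) at 32 months (red, left) and 3 months (blue, right) of each usable probe in the 5 regions called higher; a line joins the values of 1 probe. In Chst2 and St8sia1 a probe is nearly level between the ages, and in Hs6st3 a single probe accounts for the widest gap (1140000 at 32 months and 12800 at 3 months).

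The St8sia family, which adds sialic acid to sialic acid, had wide ranges within its regions. Its 8 regions had a median of 0.78, which is 0.36 with dim probes kept and 0.24 under normexp, 6 of them above 0, and 6 held at least 1 probe at 1 or more; in all, 11 of 38 usable probes did, against 6.42% of all usable autosomal probes. St8sia1, the GD3 synthase of ganglioside synthesis, was called through its upstream region (chr6:142921361-142922671), in which only 2 of 4 probes were usable. Signals there were 35500 and 187 at 32 months, against 5300 and 175 at 3 months. The call thus rests on the probe inside the gene, at 2.74, while the promoter probe was level at 0.091, and the median was 1.42 ± 1.87. With the 2 dim probes counted the median is 0.057, and under normexp background correction it is 1.47 with the promoter probe below 0, so both settings end the call. A second St8sia1 region deeper in the gene (chr6:142780140-142782150) had a median of -0.18 ± 0.21 over 7 probes, so the 2 regions of the gene differed in sign.

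St8sia6, which forms disialic acid on O-glycans, passed the threshold at 1.01 ± 2.38 but was not called because its 6 probes disagreed in sign. Its median is 0.35 under normexp and the mean of its probes is 1.65. In probe order along chr2:13710963-13712266 its signals were 426000, 280000, 557, 1340, 320 and 128 at 32 months, against 14000, 17500, 1550, 978, 136 and 73.5 at 3 months. The 2 probes inside the gene were far higher at 32 months, the one farther from the promoter by 4.92, whereas the promoter probe next to them stood at -1.48. The last probe was not well above background at 3 months, so its 1.74-fold difference after centring rests on a dim value.

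St8sia2 and St8sia4 make the polysialic acid of the neural cell adhesion molecule. St8sia2 had 4730, 4950, 18700, 95400, 130 and 255 at 32 months, against 596, 3520, 7080, 15900, 189 and 430 at 3 months, along chr7:73886903-73888210. The first 4 probes were higher at 32 months and the 2 distal promoter probes lower, so the median of 0.94 ± 1.57 joins 2 unlike stretches. The remaining genes of the family are given with values seen beforehand. St8sia4 had 1 probe inside the gene at 171000 at 32 months and 36700 at 3 months, a ratio of 2.22, beside a neighbour at -0.67, and its region stood at 0.27. St8sia3, an enzyme of short sialic acid chains in brain, had 1 usable probe inside the gene, with 20400 at 32 months and 1610 at 3 months, a ratio of 3.80, and a region median of 0.91 that becomes 0.45 with dim probes kept and 0.088 under normexp. St8sia5, a ganglioside enzyme, had 4 promoter probes that were alike, from 0.45 to 0.76, and a second region inside the gene at -0.17. Of the 5 usable probes in that second region, 3 were below 0 and 2 stood at 1.97 and 1.05. Those 2 were not well above background at 3 months, with 62.2 and 65.2.

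One feature recurred across the family. In all 5 St8sia regions that had usable probes both in the promoter and inside the gene (St8sia1, St8sia2, St8sia3, St8sia4 and St8sia6), the highest ratio belonged to a probe inside the gene, at 2.74, 2.98, 3.80, 2.22 and 4.92. The same was true of 20 of 59 such regions of the other member genes (33.9%) and of 3486 of 8649 autosomal regions (40.3%). Regions whose highest probe is at 2 or more, as in all 5 here, are the closer comparison. Among those the highest probe lay inside the gene in 4 of 7 regions of the other members and 284 of 492 autosomal regions. The family was looked at because of its high probes, so the count describes it and tests nothing.

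**Figure D3:**
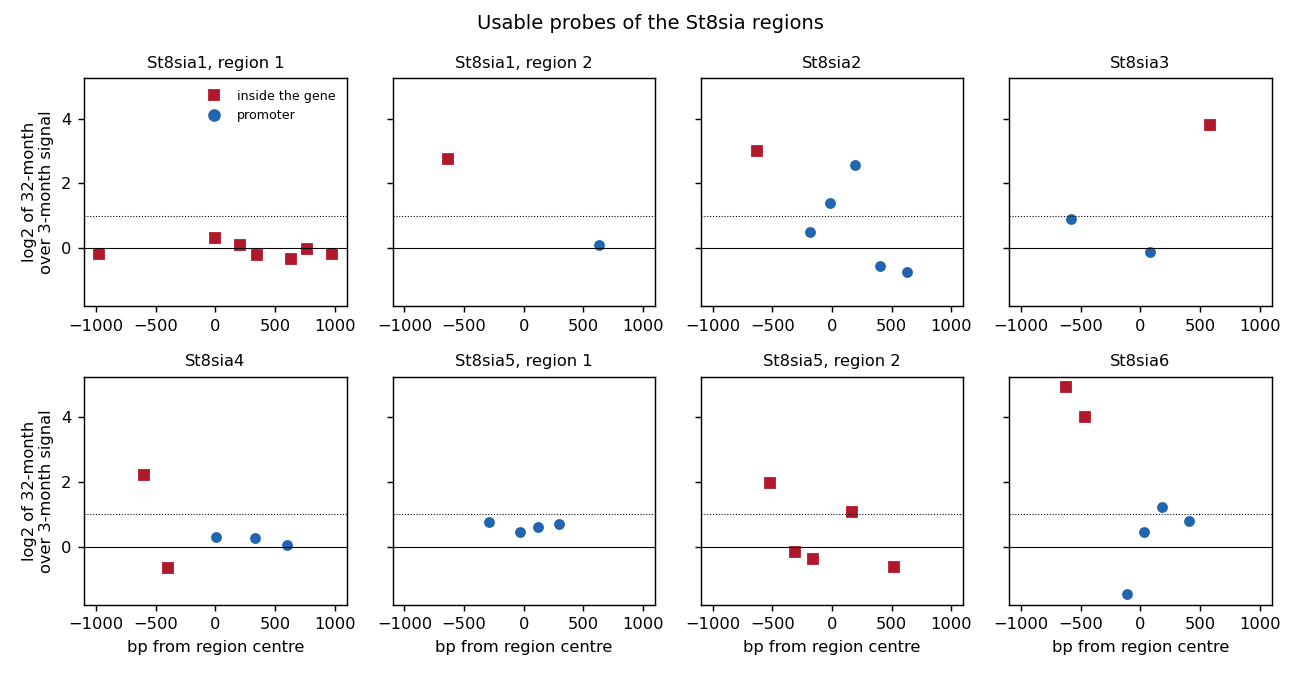
Log2 ratio of 32-month over 3-month signal of each usable probe (y axis) against its distance from the centre of its region in bp (x axis) for the 8 St8sia regions; red squares lie inside the gene, blue circles in the promoter, and the dotted line marks 1. Where a region has both kinds, the highest point is a red square.

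The galactosyl and GlcNAc transferases, which extend and branch the chains, showed the fewest high probes. This group was set by the stems B3gal, B3gnt, B4galt and Gcnt. It thus also holds B3galnt1 and B3galnt2, GalNAc transferases by name, and B3gnt1, now B4gat1. None of the group's 26 regions was called, 7 lay above 0, and the median was -0.11, within a range of -0.60 to 0.39. Only 1 of 118 usable probes reached 1 (0.847%), against 6.42% of all usable autosomal probes. At -1 or lower were 7 of 118, against 3.07% of all usable autosomal probes. Of those low probes, the ones of B3gnt1 at -1.01, B3gnt5 at -2.04 and B4galt7 at -1.29 were not well above background at 32 months. The single probe that reached 1 lies in the promoter of B3gntl1. It had 416 at 32 months and 62.4, not well above background, at 3 months. By these processed signals it was 7.34-fold higher at 32 months after centring on the array median. The other 5 probes of that gene stayed between -0.46 and 0.92. Under normexp the highest probe of the region stood at only 0.72, so the fold depends on the background correction. All 6 B3gal regions were below 0, with a median of -0.19 that becomes 0.10 under normexp; the B3gnt and B4galt medians, -0.038 and -0.13, become 0.17 and 0.075. The lowest B3gal region, B3galt4, a galactosyltransferase of ganglioside synthesis, had 355, 717, 521 and 462 at 32 months, against 609, 1000, 300 and 1430 at 3 months, and a median of -0.49 ± 1.01 (SD over 4 probes), with 1 promoter probe going the other way; under normexp its median is 0.12.

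B4galt5, which makes lactosylceramide, had a median of -0.21 ± 0.37 over 3 probes, or 0.12 under normexp. Gcnt3, the mucin branching enzyme of intestine, had 108, 310, 94 and 311 at 32 months, against 164, 394, 165 and 305 at 3 months, with a median of -0.34 ± 0.36 over 4 probes. Of these probes, 3 were lower at 32 months, and the median is -0.13 with dim probes kept and -0.11 under normexp. B3gnt5, which starts lacto-series glycolipids and is named after its values were seen, had 2 probes at -2.04 and -1.42 among others near 0, so that its median was -0.038. The probe at -2.04 had 60.6 at 32 months, not well above background, and 274 at 3 months. By these processed signals it was 4.11-fold lower at 32 months after centring, a fold that rests on the dim value.

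GalNAc transferases of the Galnt stem, which start mucin-type O-glycans, had mostly small positive medians. Of their 14 regions 12 lay above 0, with a median of 0.17 that becomes 0.027 with dim probes kept. None was called, and 3 of 59 probes (5.08%) reached 1, against 6.42% of all usable autosomal probes. Galnt3, known for protecting the hormone FGF23 from cleavage, had 4660 and 523 at 32 months, against 4130 and 579 at 3 months, and a median of 0.0093 ± 0.23. The largest median belonged to Galntl4, whose current name is Galnt18, at 0.91 ± 0.67. It was bright at both ages: its 5 probes had 159000, 153000, 125000, 415000 and 400000 at 32 months, against 73900, 81100, 65200, 470000 and 481000 at 3 months. The 2 probes inside the gene and the promoter probe next to them were higher at 32 months and the other 2 lower. Under normexp the region stood at 1.39 and was called higher, while the mean of its probes is 0.50. Galnt7, seen beforehand, had 1 probe inside the gene at 7050 at 32 months and 1290 at 3 months, a ratio of 2.45, and a region median of 0.26.

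Fucosyltransferases had a median of -0.10, or 0.074 under normexp, over 8 regions, of which 2 lay above 0, and no call. Fut2, the secretor enzyme that makes the H antigen of gut epithelium, had 662, 699, 488, 1670, 860, 776 and 65.3 at 32 months, against 780, 1020, 434, 2020, 1160, 740 and 86.4 at 3 months. Of these 7, 5 were lower at 32 months, and the median was -0.28 ± 0.26, or 0.085 under normexp; the last was not well above background at 32 months. Fut9, which makes the Lewis x structure, had the largest probe ratio of the subfamily. Its 5 usable probes (chr4:25890178-25891768) had 653000, 3700, 2060, 991 and 960 at 32 months, against 14800, 1080, 1100, 1060 and 910 at 3 months. The ratio was 5.46 (44.0-fold) at the probe farthest inside the gene, then 1.77 and 0.90, and close to 0 in the distal promoter, which gave a region median of 0.90 ± 2.27 and no call. The mean of the 5 probes is 1.62, and with dim probes kept the median is 0.075.

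The sulfotransferases had 2 of 15 regions called higher, 10 above 0 and a median of 0.062, with 10 of 78 probes at 1 or more (12.8%), beside 2.05% of all autosomal regions called higher and 6.42% of all usable autosomal probes. Chst2 puts sulfate on GlcNAc, a step in making selectin ligands. Its 5 probes (chr9:95215835-95217023) had 877, 3130, 49500, 13600 and 11100 at 32 months, against 587, 3190, 8500, 4940 and 4350 at 3 months. The 3 promoter probes carried the difference, with 2.68, 1.60 and 1.49, while the 2 inside the gene stood at 0.72 and 0.11. The median was 1.49 ± 0.97 (SD over 5 probes), or 2.81-fold. The call was narrow, since it ends when the array median is not subtracted or a brightness trend is removed: the lowest probe then falls just below 0, with medians of 1.35 and 1.40.

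Hs6st3, one of the enzymes that sulfate glucosamine in heparan sulfate, had 755, 1480 and 1140000 at 32 months, against 293, 954 and 12800 at 3 months (chr14:118272632-118273675). All 3 probes were higher at 32 months. The ratios were 1.50, 0.77 and 6.62, and the last, a 98.1-fold difference at the probe inside the gene, is the largest of all member probes. The median was 1.50 ± 3.18. With regions limited to gaps of 500 bp the 2 promoter probes alone still gave a call, at 1.14. Hs6st1, the other gene of the subfamily, had a median of 0.065 over 4 probes.

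Chst5, a GlcNAc sulfotransferase of intestine and cornea that is named after its values were seen, had the lowest median of all member regions at -0.90 ± 1.29 (SD over 4 probes; chr8:114796621-114797427). Its probes had 48300, 24600, 167 and 139 at 32 months, against 154000, 161000, 182 and 142 at 3 months. The first 2, of which the second lies in the promoter printed above, stood at -1.68 and -2.71, and the outer promoter probes were near 0; averaging probes in place of taking the median made this the 1 region called lower, at -1.14. Chst4, which acts in lymph node venules, had a median of 0.024 ± 0.24 over 7 probes. Chst10, also seen beforehand, had 1 usable probe, at 26700 at 32 months and 3130 at 3 months, and so no region value; with its dim promoter probe kept it is called higher. Of the heparan sulfate enzymes, Ndst2, the N-deacetylase/N-sulfotransferase of mast cell heparin, had a median of 0.33 ± 0.81 over 9 probes (0.14 as a mean) and Hs3st3a1 one of 0.14 ± 1.10 over 6 (-0.098 under normexp and -0.16 with gaps of at most 500 bp), with a single probe inside the gene at 25100 at 32 months and 5030 at 3 months.

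**Figure D4:**
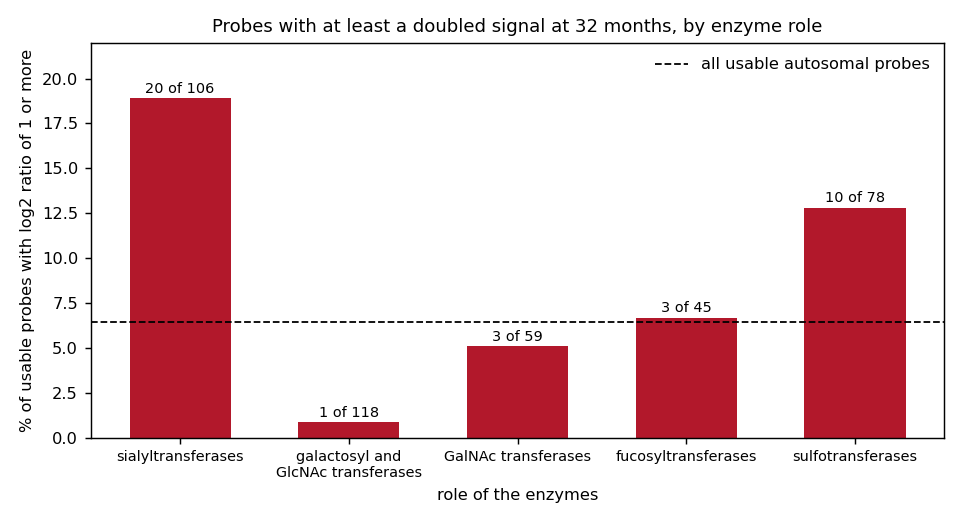
Share of usable probes with a log2 ratio of 1 or more (bars, %, from 0) for each enzyme role on the x axis, with the counts above the bars; the dashed line is the 6.42% of all usable autosomal probes. Sialyltransferases had 18.9% and sulfotransferases 12.8%, and the galactosyl and GlcNAc transferases 0.847%.

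Set out by role, 20 of 106 usable sialyltransferase probes (18.9%) had a ratio of 1 or more. They were unevenly spread: 11 of 38 in St8sia, 4 of 35 in St6galnac, 3 of 6 in St6gal and 2 of 27 in St3gal. Those in St6galnac and St6gal all lay in the called regions of St6galnac3 and St6gal1. Probes of 1 region are neighbours on the same DNA and not independent, and 10 of the 22 sialyltransferase regions held such a probe. Over all members it was 37 of 406 probes (9.11%), against 6.42% of all autosomal ones, and 22 of 85 regions (25.9%), against 16.7%. At the other end 12 of 406 (2.96%) were at -1 or lower, against 3.07%, in 10 of 85 regions (11.8%), against 9.4%. The median processed signal of the usable probes was 699.5 at 32 months and 604 at 3 months for sialyltransferases, 461.5 and 454.5 for galactosyl and GlcNAc transferases, 645 and 578 for GalNAc transferases, 662 and 740 for fucosyltransferases, and 488.5 and 520 for sulfotransferases.

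High probes of the members were more frequent inside genes than in promoters, by the labels of the array design. These labels differ in places from the RefSeq promoters used above. Probes of Chst4, Fut7, Galnt5, Galntl2 and Hs3st1 that the design places inside the gene matched such a promoter. Of the member probes that the design places inside a gene, 19 of 138 (13.8%) reached 1, against 6.95% of all such autosomal probes. In promoters it was 17 of 256 (6.64%), against 6.19%. All 6 member probes with a ratio of 3 or more lay inside genes (Hs6st3, Fut9, Chst10, St8sia3 and 2 of St8sia6). They are 6 of 138 inside probes, against 0 of 256 promoter probes. Over all autosomal probes such ratios were found at 234 of 21832 inside probes and 254 of 32824 promoter probes, so there too the share was larger inside genes. The number of CG in the probe itself gave no steady order among members: the share at 1 or more was 7.32% with none, 11.4% with 1 and 9.38% with 2 or more, against 4.81%, 6.52% and 8.59% of all autosomal probes.

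Brightness moved with these ratios and its part in them was not tested. Among member probes whose mean signal over both ages (geometric) was 10000 or more, 11 of 29 (37.9%) had a ratio of 1 or more, against 23.9% of all autosomal probes that bright. From 1000 up to 10000 it was 14 of 118 (11.9%), against 7.28%; from 100 up to 1000, 11 of 215 (5.12%), against 4.62%; and below 100, 1 of 44 (2.27%), against 3.70%. The signal classes were set after the values were seen. Bright probes were also more often at -1 or lower over all autosomal probes, 7.17% in the top class.

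The genes that supply or share these pathways were read from 8 lists: sialic acid supply and removal, N-glycan branching, other galactosyl and GalNAc transferases, heparan and chondroitin backbone, other sulfotransferases, O-fucose and O-mannose, fucose supply, and mucins. Of 92 names, 71 had a value, in 74 regions, with a median of -0.0035. One region was called higher and 1 lower, beside 2.05% and 0.519% of all autosomal regions. The higher one is 1 region (chr19:5297372-5298206) of the promoter shared by Gal3st3, which sulfates galactose, and the splicing factor gene Sf3b2. Its 5 probes had 574, 611, 225, 1790 and 766 at 32 months, against 314, 219, 59.1, 857 and 376 at 3 months, the third not well above background at 3 months, and its median was 1.20 ± 0.43. Another region of the shared promoter (chr19:5295450-5296294) stood at -0.0093 over 5 probes. A region inside Gal3st3 stood at 0.93 over 2 probes, and neither of these was called. The lower one is Mgat2, required for complex N-glycans, with 1260 and 7850 at 32 months, against 6160 and 29600 at 3 months, and a median of -1.96 ± 0.26 over only 2 probes. Both calls end under normexp background correction, at 0.73 and -0.94.

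By list, the medians were -0.11 for sialic acid supply and removal, 0.024 for N-glycan branching, -0.045 for other galactosyl and GalNAc transferases, 0.031 for the heparan and chondroitin backbone, 0.095 for other sulfotransferases, -0.0032 for O-fucose and O-mannose, -0.089 for fucose supply and 0.0053 for the mucins that carry the chains. The 10 regions of sialic acid supply and removal held no call. Cmah, which hydroxylates the sialic acid donor in mice, was seen to stand highest there at 1.02 ± 0.65 over 9 probes, 1 of which was at -0.68.

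**Figure D5:**
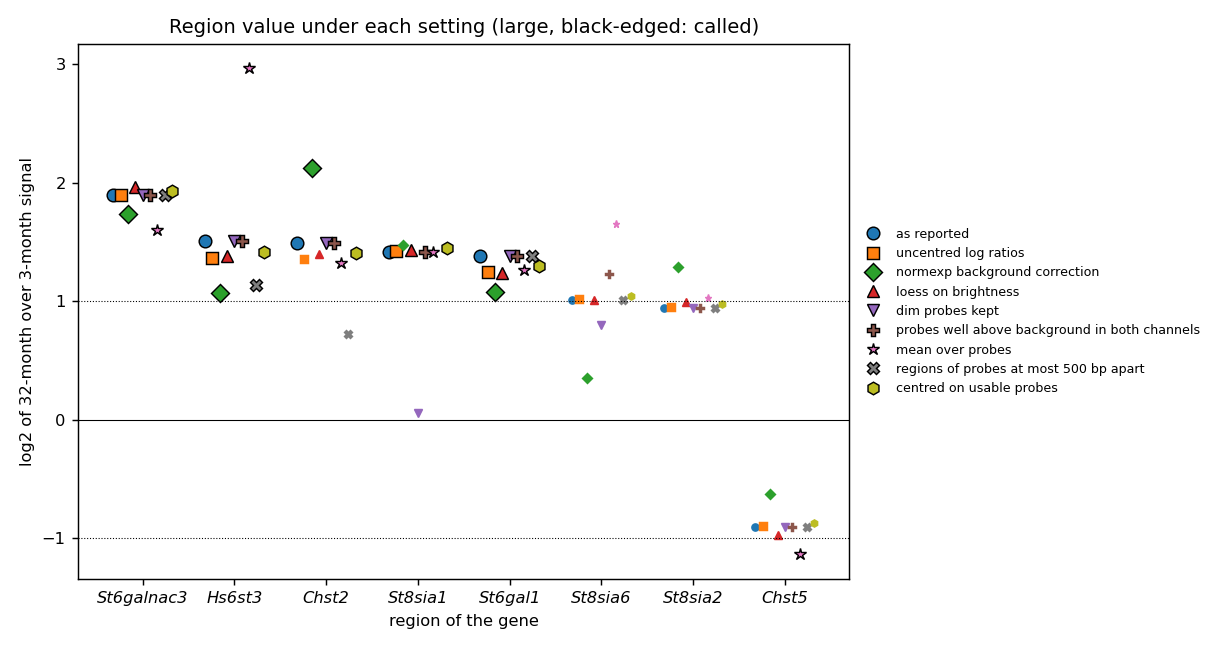
Log2 ratio of 32-month over 3-month signal (y axis) of the 5 called regions and of St8sia6, St8sia2 and Chst5 (x axis) under the reported setting and 8 others (symbols); large, black-edged symbols mark a call. St6galnac3, Hs6st3 and St6gal1 carry a call under every setting drawn, Chst2 and St8sia1 under some.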

How the data were processed

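Genomic DNA of intestine from 32-month-old and 3-month-old mice was measured in 4 sample records, 2 per age, on 2 custom Agilent arrays that cover different regions of the genome, with chromosome 9 split between them, and are not replicates of each other. Per the file headers, Agilent Feature Extraction 9.1.3.1 produced the deposited intensity values: the processed signal of each spot is background-subtracted, detrended over the slide and scaled linearly between the dyes, without lowess. Cy5 holds the 32-month and Cy3 the 3-month DNA, per the labels. Both records of an array hold the same scan, and each age was read from its own record and channel. The deposited value table equals the processed signal in 100% of spots.

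Log2 ratios of 32 over 3 months were centred on the median of all non-control probes of an array; no test was run. Control spots, outlier spots and 272 probes without a position did not enter. Usable probes were well above background in at least 1 channel. Regions and calls follow the gap of 1000 bp and the log2 threshold of 1 given in the text; the calling code was tested on simulated data. A fold involving a dim channel was computed from that channel's own processed signal. It depends on the background correction and is not a firm lower bound. Regions named are those called, other regions of the same genes, the largest median of each of the 14 subfamilies with at least 3 usable probes, those nearest the threshold on either side, regions past it whose probes differ in sign, called regions of the 8 pathway lists, and 6 fixed names (St6gal1, Fut2, Gcnt3, Galnt3, B3gnt6, Chst4). The members, lists and tests were chosen with earlier results of these data known. Of the 83 names, 80 are current in RefSeq for GRCm38.p6 and 3 are older synonyms (B3gnt1, now B4gat1; Galntl2, now Galnt15; Galntl4, now Galnt18). Python 3.11.15, pandas 2.3.3 and, for normexp with an offset of 50, limma 3.58.1 in R 4.3.3 were used. The loess alternative used statsmodels 0.14.6. Altogether 9 alternatives were tried, 8 planned and 1 chosen after seeing the data (centring on the usable probes).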

Additional observations from a re-analysis of the deposited data

How the results depend on the processing

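The count of member regions called higher was 5 as reported and 4 or 5 under the 9 alternatives, and the count called lower was 0 except with the mean over probes, which called 1 (Chst5). St6galnac3, Hs6st3 and St6gal1 kept their calls under all 9. One of the 9, the deposited value table, equals the processed signal in 100% of spots. It could only repeat the reported result and says nothing about how firm a call is. Chst2 lost its call without centring (1.35), after loess on brightness (1.40) and in part with regions of at most 500 bp, where its largest piece stood at 0.72 and was not called while a smaller piece of promoter probes was; St8sia1 lost its call under normexp (1.47) and with dim probes kept (0.057), and had no region with 2 usable probes at 500 bp; Galntl4 gained one under normexp (1.39) and Chst10 gained one with dim probes kept. Under normexp the share of all autosomal regions called higher was 2.82% and lower 0.0539%, against 2.05% and 0.519% as reported, with a median over all regions of 0.11.

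Subfamily medians rest on 2 to 14 regions and moved as follows. Under normexp the member median was 0.13, St3gal 0.22, St6galnac 0.082, St6gal 0.58, St8sia 0.24, B3gal 0.10, B3gnt 0.17, B4galt 0.075, Fut 0.074, Chst 0.15 and Hs6st 0.68, and the pathway lists had 2 regions called higher, 0 lower and a median of 0.12. Without centring St6gal was 0.55, St8sia 0.64, Gcnt -0.099 and Ndst 0.00026. With dim probes kept St8sia was 0.36, B3gal -0.086 and Galnt 0.027. With the mean over probes St3gal was 0.16, Hs3st 0.34 and Hs6st 1.54, and 3 pathway regions were called higher. With regions of at most 500 bp St3gal was 0.11, St8sia 0.65 and Hs6st 0.60. The signs of the B3gal, B4galt, St6galnac, B3gnt, Fut and Gcnt (-0.024) medians under normexp are opposite to those reported, beside 0.11 over all autosomal regions. The cause was not tested.

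No paired analysis was possible because each age has 1 sample per array and no test was run. Signal over background is the limit at the dim end: 86 of 492 member probes were dim at both ages and 37 usable ones at 1 age.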
